A study of Mus musculus with 5 samples.

Results

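PU.1 is the ETS-family transcription factor, encoded by Spi1, that directs blood cells towards the myeloid and B lineages. It binds DNA at a purine-rich site around the letters GGAA, most often extended to GAGGAA. At many myeloid genes several such sites lie within a few kilobases of each other, next to sites for partner factors such as C/EBP, AP-1 and Runx proteins. The regions described here are the places where PU.1 summits crowded together. Of the 11111 summits in the deposited list, 10920 lay on chromosomes 1 to 19, and 448 of these (4.1%) stood in 100 runs. A run was defined as at least 4 summits in a row on 1 chromosome, with no more than 10 kb between each summit and the next. The runs were thus chosen by the positions of the summits, and spacing, number and location below are descriptions of that choice. The summit scores come from the same comparison as the positions, so they are also given without a test.

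The series measured PU.1 binding by ChIP-seq, with the PU.1 antibody T-21, in the mouse acute myeloid leukaemia AML-246. It is p53-/- and expresses a hairpin (shPU.1) that doxycycline can switch off, and its cells were taken from the spleens of leukaemic recipient mice of the strain C57BL/6. The PU.1 low group was 2 libraries from untreated mice, in which the hairpin, linked to GFP, held PU.1 down. The PU.1 high group was 3 libraries from mice given doxycycline for 2 days, which shuts the hairpin off and restores the cells' own PU.1. Both groups share the p53 deletion, the hairpin construct and the single leukaemia of origin, and host cells of the spleen may be present in either. The libraries are titled technical replicates, and nothing says that they came from different mice. The series has 1 list of summits, whose name sets high against low without saying which libraries entered it, so there is no value per library, no spread between replicates and no depth to read. The list holds no expression values, so the labelled cell type could not be checked against its markers. The score of a summit is the peak caller's −log10 value, in which a larger number stands for stronger evidence of enrichment. The sources used here do not say if p or q was the basis. Intervals below are Wilson 95% intervals and cover counting error only.

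The letters of the sites could be read where a summit lay in a promoter of the RefSeq table for GRCm38.p6 (mm10), which gives 250 bases before to 50 after a transcription start. In the runs, 16 summits lay in 18 such promoters of 15 genes. The 6 protein-coding promoters that held a GAGGAA core on either strand are shown because the distance from core to summit can be read in them. Each is printed on the gene's own strand, from 250 bases before the start to 10 after it, with GAGGAA and its reverse complement TTCCTC in capitals. Aim2 (chr1:173420354-173420613, plus strand) encodes a cytosolic DNA sensor of the inflammasome. Cds2 (chr2:132285689-132285948, plus strand) encodes an enzyme of phosphoinositide synthesis. Gimap4 (chr6:48684328-48684587, plus strand) encodes a GTPase of lymphoid and myeloid cells. Gna15 (chr10:81524216-81524475, minus strand) encodes a G protein alpha subunit of blood cells. Kcnk13 (chr12:99964249-99964508, plus strand) encodes a potassium channel of macrophage-lineage cells. Atg101 (chr15:101284051-101284310, plus strand) encodes a part of the complex that starts autophagy.
Aim2: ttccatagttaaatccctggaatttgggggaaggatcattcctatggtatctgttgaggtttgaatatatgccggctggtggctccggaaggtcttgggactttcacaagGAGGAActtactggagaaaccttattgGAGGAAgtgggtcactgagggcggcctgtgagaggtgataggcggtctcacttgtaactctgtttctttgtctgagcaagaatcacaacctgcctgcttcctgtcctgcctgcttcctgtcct
Cds2: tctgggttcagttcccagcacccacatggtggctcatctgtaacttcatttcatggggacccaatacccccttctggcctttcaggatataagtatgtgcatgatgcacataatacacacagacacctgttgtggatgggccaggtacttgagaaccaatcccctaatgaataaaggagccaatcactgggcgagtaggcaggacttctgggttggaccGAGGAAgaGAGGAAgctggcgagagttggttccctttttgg
Gimap4: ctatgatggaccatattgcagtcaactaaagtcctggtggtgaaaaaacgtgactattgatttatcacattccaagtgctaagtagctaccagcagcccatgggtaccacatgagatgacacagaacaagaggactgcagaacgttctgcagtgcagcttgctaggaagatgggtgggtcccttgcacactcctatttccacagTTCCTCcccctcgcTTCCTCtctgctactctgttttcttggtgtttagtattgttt
Gna15: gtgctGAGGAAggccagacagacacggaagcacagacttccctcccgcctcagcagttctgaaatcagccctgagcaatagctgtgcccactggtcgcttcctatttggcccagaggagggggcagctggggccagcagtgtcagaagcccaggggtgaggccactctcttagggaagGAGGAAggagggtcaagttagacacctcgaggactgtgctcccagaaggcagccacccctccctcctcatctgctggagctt
Kcnk13: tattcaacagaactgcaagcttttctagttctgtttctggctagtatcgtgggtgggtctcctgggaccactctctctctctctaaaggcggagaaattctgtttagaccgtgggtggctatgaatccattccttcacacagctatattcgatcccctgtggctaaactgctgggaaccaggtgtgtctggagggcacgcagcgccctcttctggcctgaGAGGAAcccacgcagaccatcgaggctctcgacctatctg
Atg101: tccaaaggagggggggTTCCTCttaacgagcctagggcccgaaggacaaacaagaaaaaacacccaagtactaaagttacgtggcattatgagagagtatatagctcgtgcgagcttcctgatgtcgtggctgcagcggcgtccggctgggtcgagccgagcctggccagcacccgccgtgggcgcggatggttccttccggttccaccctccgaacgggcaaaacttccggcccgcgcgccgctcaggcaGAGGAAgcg

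In 5 of these 6 promoters the summit lay within 20 bases of a core. In Gimap4 it lay 3 bases from the first base of the nearer core and 11 from the other, both on the reverse strand. In Cds2 the distances were 4 and 12 bases, with a pair of cores running head to tail just before the start. Kcnk13 held 1 core, 6 bases from the summit. In Aim2 the nearer core was 16 bases away and formed part of the longer PU.1 core GAGGAAGT, and a further GAGGAA lay 43 bases away. In Atg101 a core began exactly at the summit, 1 base after the start, and another lay 235 bases away. Gna15 stood apart, since its cores were 40 and 133 bases from the summit. The summit scores were 7.20 for Aim2, 5.78 for Cds2, 9.77 for Gimap4, 5.97 for Gna15, 6.00 for Kcnk13 and 12.5 for Atg101. In none of these 6 promoters was the summit the highest of its run.

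The other promoter summits of the runs lay in Tank, Elmo2, Cass4, Eif2a, Mcl1, Gimap6, Aqp9, 5031439G07Rik and the long non-coding gene Dleu2. Of the 18 promoters, 7 (38.9%) held GAGGAA, against 313 of 627 promoters (49.9%) that held a summit outside the runs and 28.2% of all 31396 promoters on chromosomes 1 to 19. The longer GAGGAAGT stood in 2 of the 18 (11.1%), in 10.5% of the promoters with other summits and in 3.25% of all. Of the promoter summits that lay at least 20 bases from the edges of the window, 5 of 15 in runs (33.3%) and 135 of 496 outside them (27.2%) had a GAGGAA core within 20 bases, against 4.53% of all promoter positions. With 18 promoters, the shares in runs are too coarse to set apart from those of other summits. Genes with a run within 50 kb were also examined, of which 168 of 226 have a promoter in the table. GAGGAA stood in 59 of these 224 promoters (26.3%) and GAGGAAGT in 6 (2.68%). A C/EBP site written TTGCNNAA, with N any base, stood in 31 (13.8%), against 10.9% of all promoters. AP-1 sites (TGANTCA) stood in 4.91% against 7.84%, Runx sites (TGTGGT) in 14.7% against 16.7%, ETS-IRF composites (GGAANNGAA) in 9.38% against 8.13%, interferon response elements (GAAANNGAA) in 9.38% against 8.52%, Egr sites (GCGNGGGCG) in 8.93% against 5.63% and Gata sites (AGATAA) in 6.70% against 11.2%. In the 18 promoters that held a summit of a run the order was different for some of these, with C/EBP sites in 4 (22.2%) against 8.77% of the 627 promoters with other summits, AP-1 sites in 3 (16.7%) against 6.06%, Runx sites in 2 (11.1%) against 18.0% and ETS-IRF composites in 3 (16.7%) against 15.8%. Interferon elements and Egr sites each stood in 1 of the 18 (5.56%), against 12.3% and 5.26%, and Gata sites in 0 against 6.86%. Of the 3 AP-1 matches in the 18 promoters, 2 were the same site in overlapping promoters of Tank, and the other was in Aqp9. Promoters of 1 gene can overlap, so the 18 are not independent. Each motif was searched on both strands, GAGGAA lies inside every GAGGAAGT, and the ETS-IRF and interferon motifs may overlap each other. A match describes letters in these windows and does not show binding by the factor.

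Some runs lay near microRNA genes, and 3 of the mature microRNAs there share the seed AGCAGCA, shown in capitals at bases 2 to 8. The seed is the part of a microRNA that pairs with target messages, so these 3 belong to the family of miR-15 and miR-16, known as a brake on cell-cycle and survival genes such as those of the Bcl2 family. These 3 were picked for their shared seed after the sequences were seen, and other microRNAs near runs had other seeds. Their number is not a result about the runs, since the share of all microRNA genes near a run is not given. The genes of miR-15a and miR-16-1 also share a host gene and a run. The sequences are from RefSeq.
mmu-miR-15a-5p: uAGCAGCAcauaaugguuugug
mmu-miR-16-5p: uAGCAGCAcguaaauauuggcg
mmu-miR-6353: uAGCAGCAcguauuuauccuauu

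The genes of miR-15a and miR-16-1 lie in Dleu2 on chromosome 14, 46.2 and 46.4 kb from the run at chr14:61678321-61684379. That run held 4 summits over 6.06 kb around the start of Dleu2. Their scores were 10.4 at 61678321, inside Dleu2 and 4.05 kb after its start, 3.33 at 61682498, which is 0.125 kb before the start, 12.1 at 61683877 and 29.0 at 61684379. The last of these, 2.01 kb before the Dleu2 start, was among the highest scores of any run. No protein-coding gene lay within 50 kb, and the nearest, Kcnrg, was 65.5 kb away. The gene of miR-6353 lies in Pid1, 21.4 kb from a run of 4 summits at chr1:84240392-84251356. Pid1 encodes a phosphotyrosine-binding protein of insulin signalling, and all 4 summits, with a top score of 18.1, lay inside it, 33.3 to 44.3 kb after its start.

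Most runs were near the smallest size the rule allows. There were 69 runs of 4 summits, 21 of 5, 5 of 6, 4 of 7 and 1 of 9. A run spanned a median of 12.4 kb (quartiles 9.57 and 16.7 kb), from 2.81 kb in Rin3 to 40.1 kb at Nr4a1, and the 100 runs covered 1435 kb in all. The 348 gaps inside runs had a median of 3.74 kb (quartiles 1.37 and 6.37 kb). Of these gaps 23 were under 0.5 kb, 59 (16.95%) were under 1 kb and 126 were over 5 kb. The shortest gap was 212 bases. Neighbouring summits of a run were thus mostly more than 1 kb apart.

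Gaps just inside and just outside the 10 kb limit were alike in size. The widest gap inside a run was 9.998 kb, between summits scored 7.23 and 8.24 in the run at Gm2a, followed by 9.98 and 9.97 kb in the runs at Tank and Arrb2. Among gaps with no run on either side, the narrowest that kept summits from forming a run was 10.1 kb. It lay between summits scored 8.40 and 4.74 at chr13:43768221-43778319. Gaps between a run and the next summit are not included. Of the gaps with no run on either side, those of 10.12 and 10.29 kb came next, both on chromosome 1. On the number of summits, just outside the rule stood 276 runs of 3 with 828 summits, whose median score was 8.79. A further 1188 pairs and 7268 lone summits made up the rest of chromosomes 1 to 19.

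**Figure D1:**
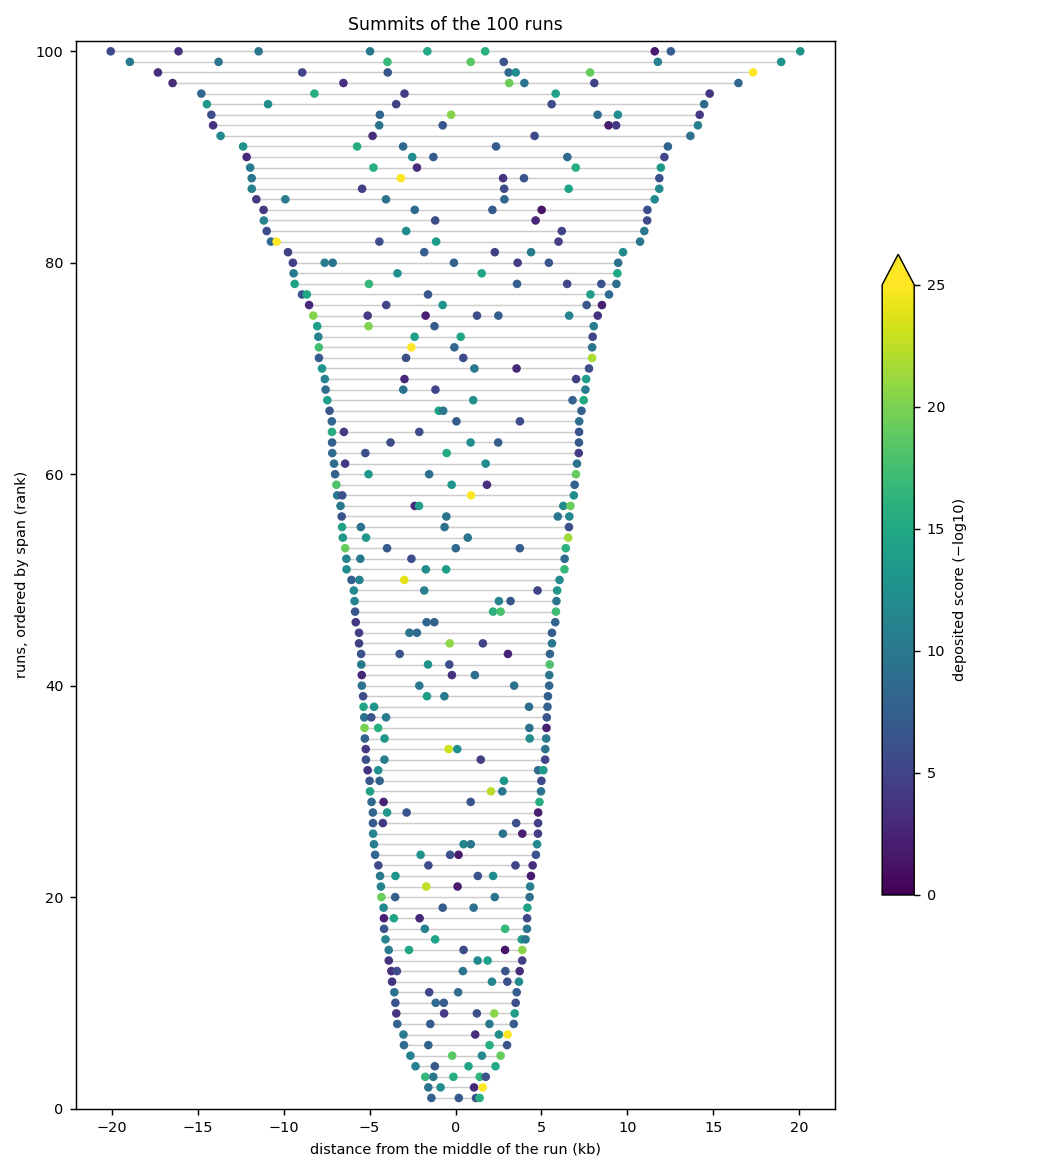
Each horizontal line is 1 of the 100 runs, ordered by span from the shortest (2.81 kb) to the longest (40.1 kb), with each summit a point at its distance in kb from the middle of the run, coloured by score (−log10, values above 25 in 1 colour). High and low scores lie side by side in most runs, and the highest are found at edges as well as inside.

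Runs were spread over all 19 of these chromosomes, though unevenly. Chromosome 1 held the most, with 12 runs. Chromosome 12 had the largest share of its summits in runs, 41 of 477 (8.60%) in 9 runs, followed by chromosome 15 with 7.03%. Chromosome 6 had the smallest, with 10 of 642 (1.56%) in 2 runs. Only 4 runs lay within 200 kb of another run, and they formed 2 pairs, at Rin3 on chromosome 12 and at the neighbours Pid1 and Dner on chromosome 1.

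Summits in runs were scored much like all others. The median score was 8.91 in the runs (quartiles 5.97 and 12.2, range 1.44 to 41.7) and 8.56 for the 10472 other summits on the same chromosomes (quartiles 5.78 and 11.9, range 1.32 to 43.3). Scores of at least 10 made up 180 of 448 (40.2%) against 3910 of 10472 (37.3%), scores of at least 20 made up 19 (4.24%) against 410 (3.92%), and scores under 5 made up 75 (16.7%) against 1805 (17.2%). A run was therefore a group of ordinary summits lying close together, strong and weak side by side. The median run had a top score of 14.6 and a lowest score of 4.77, with a median difference of 9.16. The top score reached 20 in 19 runs and 10 in 89, while 54 runs held a summit under 5. In 4 runs every summit scored at least 10. In the 69 runs of 4 the highest summit stood at an edge in 38 and inside in 31. Neighbouring summits differed by a median score of 4.23 inside runs and 4.15 between the 10355 neighbour pairs elsewhere. The pairs elsewhere include some no more than 10 kb apart, so these medians do not set close pairs against distant ones.

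**Figure D2:**
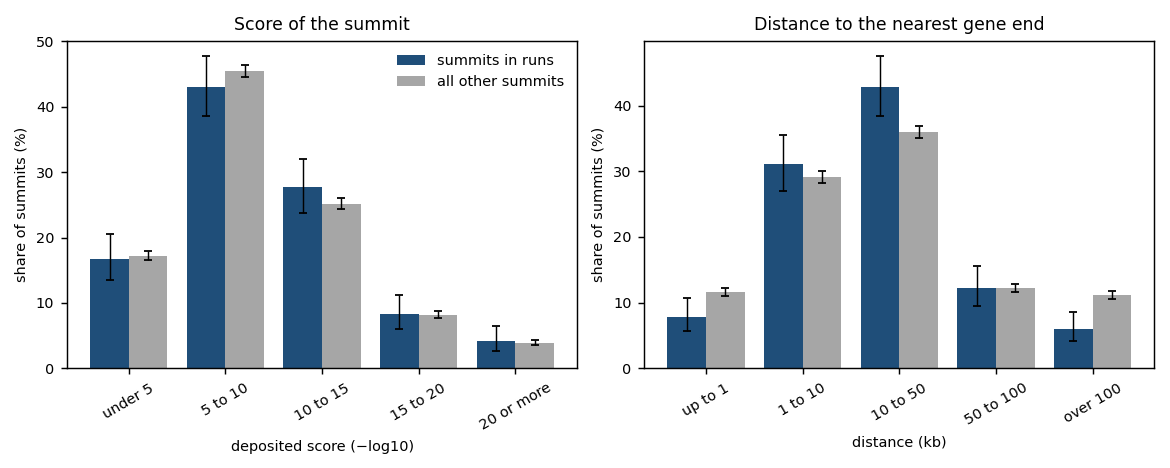
Shares of summits, in percent with Wilson 95% intervals, by score class (−log10) and by distance in kb to the nearest end of a protein-coding gene, for the 448 summits in runs and the 10472 others. The score classes are alike, while the runs hold fewer summits within 1 kb of a gene end (7.81% against 11.6%) and more at 10 to 50 kb (42.9% against 35.9%). The rule chose summits by position, which may itself shift the distance shares.

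The runs differed more in where they lay, but the rule chose them by position and may itself shift the shares below. Of the 448 summits, 35 (7.81%, interval 5.67 to 10.7) lay no more than 1 kb from where a protein-coding gene begins or stops, against 1213 of the others (11.6%, interval 10.98 to 12.2). The middle distances of 10 to 50 kb held 42.9% (interval 38.4 to 47.5) of summits in runs and 35.9% of the others. Beyond 100 kb lay 27 (6.03%, interval 4.17 to 8.63) against 11.1%. This distance had a median of 17.8 kb in runs and of 15.3 kb elsewhere. Inside protein-coding genes lay 214 summits of runs (47.8%, interval 43.2 to 52.4) and 5463 others (52.2%, interval 51.2 to 53.1). Summits of 1 run are neighbours and share their surroundings, whereas these intervals treat each summit as independent, so they may be too narrow. Long non-coding genes held 60 summits of runs (13.4%) and 1211 others (11.6%), and 43 of the 60 were in no protein-coding gene.

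Judged by their summits, 32 runs lay within 1 protein-coding gene, 33 had some summits in genes and 35 had none. From first to last summit, 66 runs overlapped a protein-coding gene, among them the run at Gimap4, which had no summit inside a gene. A protein-coding gene stood within 50 kb of 93 runs, with exactly 1 gene for 40 runs, 2 or 3 for 34 and 4 or more for 19. In all, 226 of 20661 protein-coding genes (1.09%) had a run within 50 kb, whereas 10680 (51.7%) had a summit of any kind that near. Runs overlapped 80 genes, 78 genes held a summit of a run and 36 genes held 4 or more.

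The gene lists show which kinds of genes had a run nearby, read against the 1.09% of all protein-coding genes. The lists also differed in having any summit within 50 kb, from 37.5% of the neuronal and 44.0% of the liver genes to 78.6% of the inflammatory and 100% of the antigen presentation genes, with 72.2% over all lists against 51.7% of all genes, so 1.09% is not a like baseline for each. The list of inflammatory cytokines and NF-kB feedback genes had the most, 5 of 28 (17.9%, interval 7.88 to 35.6): Il1a, Il1b, Nfkb1, Tnfaip3 and Tnip3. Il1a and Il1b share 1 run. The pattern recognition, Fc and lectin receptors had 3 of 31 (9.68%), which were Cd14, Pilra and Pilrb1, the last pair again at 1 run. Lysosome and phagocytosis genes had 2 of 28 (7.14%), Ctsc and Grn, and monocyte and macrophage genes 2 of 29 (6.90%), Cd14 and Nr4a1. Among neutrophil genes only Ncf4 of 31 had one, and among stem cell and self-renewal genes only Fli1 of 28. Aurka and Pcna were the 2 of 31 cell cycle genes. No run lay near any of the 19 antigen presentation genes, although all 19 had a summit within 50 kb, or near the B cell (23), T and NK cell (27), neuronal (24) and liver (25) genes. A count of 0 of 19 has an upper bound of 16.8%, so these lists are too short to show a low share. Over all lists, 15 of 316 genes (4.75%, interval 2.90 to 7.68) had a run within 50 kb, at 13 runs. The lists were chosen with results of these data known, and most hold genes of blood cells.

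**Figure D3:**
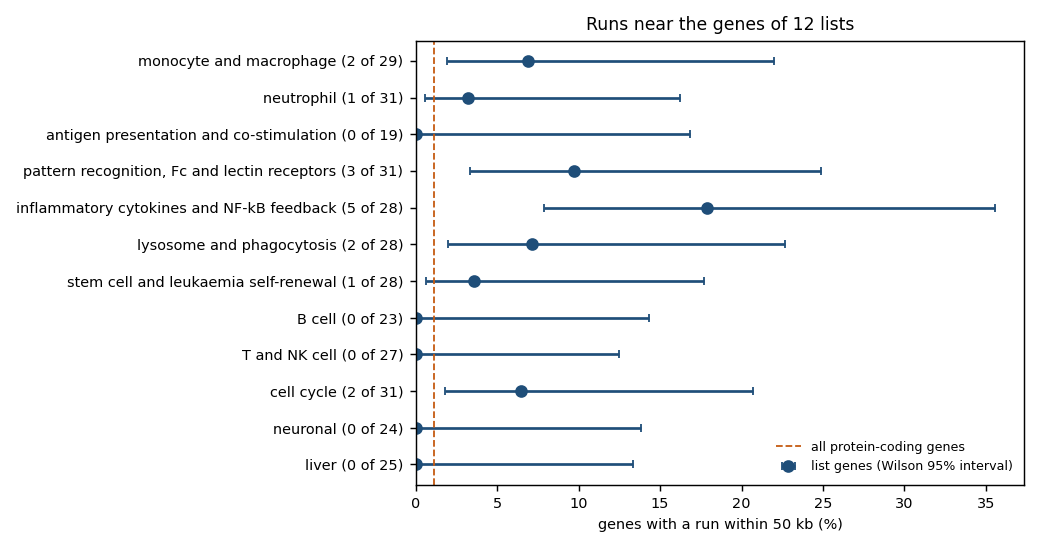
Percent of the genes of each list, with Wilson 95% intervals, that had a run within 50 kb, beside the 1.09% of all protein-coding genes on chromosomes 1 to 19. The inflammatory cytokine and NF-kB feedback list is highest at 17.9%, and 5 lists stand at 0.

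The 10 runs of 6 or more summits are given first. The largest, at chr15:101244183-101284302, held 9 summits over 40.1 kb across Nr4a1, an immediate-early nuclear receptor needed by patrolling monocytes. From left to right the scores were 5.54 at 101244183, 3.48 at 101248126, 9.71 at 101252788, 10.1 at 101259270, 14.97 at 101262606, 15.9 at 101265968, 1.77 at 101275835, 7.27 at 101276770 and 12.5 at 101284302. The highest, 15.9, stood 0.878 kb before the start of Nr4a1 in the promoter table, and 3 summits lay within the gene's annotated span. The last summit is the one at the Atg101 start printed above. Scores thus peaked at Nr4a1, with a second high point at Atg101 and the lowest summit between them. Smim41, Grasp and the activin receptor gene Acvr1b lay 8.86, 11.4 and 30.5 kb away.

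The run near Fth1, at chr19:9917945-9952570, held the highest score of all runs, 41.7. Fth1 encodes the heavy chain of ferritin, the iron store of the cell, and its start lay 28.0 kb from that summit. The 7 scores were 3.24 at 9917945, 4.99 at 9926340, 6.73 at 9931316, 8.46 at 9938348, 12.1 at 9938759, 19.1 at 9943088 and 41.7 at 9952570. They increased at every step towards Fth1. The summits from 9926340 to 9943088 lay in the long non-coding gene Gm36913, and the highest was 4.946 kb before the Gm36913 start. The run lay outside protein-coding genes, 18.5 kb from Incenp, a chromosomal passenger protein gene, with Best1 at 32.6 kb and Rab3il1 at 49.1 kb on the far side of Fth1.

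The other runs of 7 summits lay in or near Dner, Mdm1 and Zfp36l1. In Dner, a Notch-ligand gene known from neurons, all 7 summits were inside the gene at chr1:84407049-84444944. Their scores were 10.2 at 84407049, 9.71 at 84412209, 16.7 at 84422037, 18.5 at 84426881, 6.57 at 84428802, 11.1 at 84437769 and 12.7 at 84444944. The run upstream of Mdm1, at chr10:118083245-118102173 and 39.4 kb from the gene, held no summit above 10.5. It scored 4.62 at 118083245, 10.5 at 118085098, 9.48 at 118085563, 7.999 at 118092617, 4.41 at 118096324, 6.70 at 118098138 and 9.24 at 118102173. Zfp36l1 encodes a protein that binds AU-rich elements and hastens decay of messages. Its run, at chr12:80054519-80071069 in the long non-coding gene Gm36660 and 36.7 kb from Zfp36l1, was led by 1 edge summit. The scores were 20.4 at 80054519, 4.29 at 80057683, 2.06 at 80061055, 5.74 at 80064045, 7.22 at 80065288, 11.1 at 80069405 and 3.55 at 80071069.

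The 5 runs of 6 summits lay at Mcl1, Tnfaip3, Cd300a, Tifab and Cd2ap. Mcl1 is the Bcl2-family survival gene on which many myeloid cells depend, and its run was at chr3:95652445-95673920. The scores were 8.35 at 95652445, 29.7 at 95652776, 5.92 at 95658752, 13.7 at 95662055, 4.62 at 95669176 and 9.96 at 95673920. The summit of 29.7 was 5.95 kb before the start of Mcl1, whereas the summit at the promoter, 0.031 kb after the start, scored 5.92. Adamtsl4, Ensa and Golph3l lay 2.28, 20.3 and 33.2 kb away.

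Tnfaip3 encodes A20, the enzyme that edits ubiquitin chains to end NF-kB signalling. Its run lay outside protein-coding genes at chr10:19043972-19076893, 28.6 to 61.5 kb before the Tnfaip3 start, with no other protein-coding gene within 50 kb. It scored 3.03 at 19043972, 3.48 at 19053911, 19.4 at 19063557, 9.71 at 19064439, 5.02 at 19068508 and 8.36 at 19076893. The summits from 19063557 to 19068508 lay in the long non-coding gene Gm51814, the highest of them 0.778 kb after its start. The 2 summits nearest to Tnfaip3 were the weakest of the 6.

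Tifab encodes an inhibitor of Traf6 signalling. Its run at chr13:56165762-56184482 scored 14.2 at 56165762, 16.6 at 56170087, 7.41 at 56178700, 5.28 at 56181617, 6.51 at 56183606 and 8.85 at 56184482. The summit inside Tifab was the one of 7.41, 0.185 kb after its start, and Macroh2a1, a histone variant gene, was 30.1 kb away. All summits of this run but the first also lay in the long non-coding gene Gm31657. Cd300a encodes an inhibitory receptor of myeloid cells, in a cluster of related receptors. The run there, at chr11:114884893-114913099, scored 3.72 at 114884893, 9.59 at 114894556, 6.73 at 114898251, 1.77 at 114907900, 4.39 at 114908339 and 10.7 at 114913099. It stretched from before Cd300a towards Cd300lb, 9.68 kb from the run, with Gprc5c at 12.3 kb and Cd300c at 43.01 kb. Cd2ap encodes an adaptor of the actin cytoskeleton. Its run lay 38.5 to 66.9 kb from the gene at chr17:42915243-42943653, and scored 5.91 at 42915243, 8.20 at 42925045, 20.4 at 42929191, 8.85 at 42937716, 11.9 at 42938894 and 4.003 at 42943653. In this run the highest summit was interior, with lower ones on both sides.

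**Figure D4:**
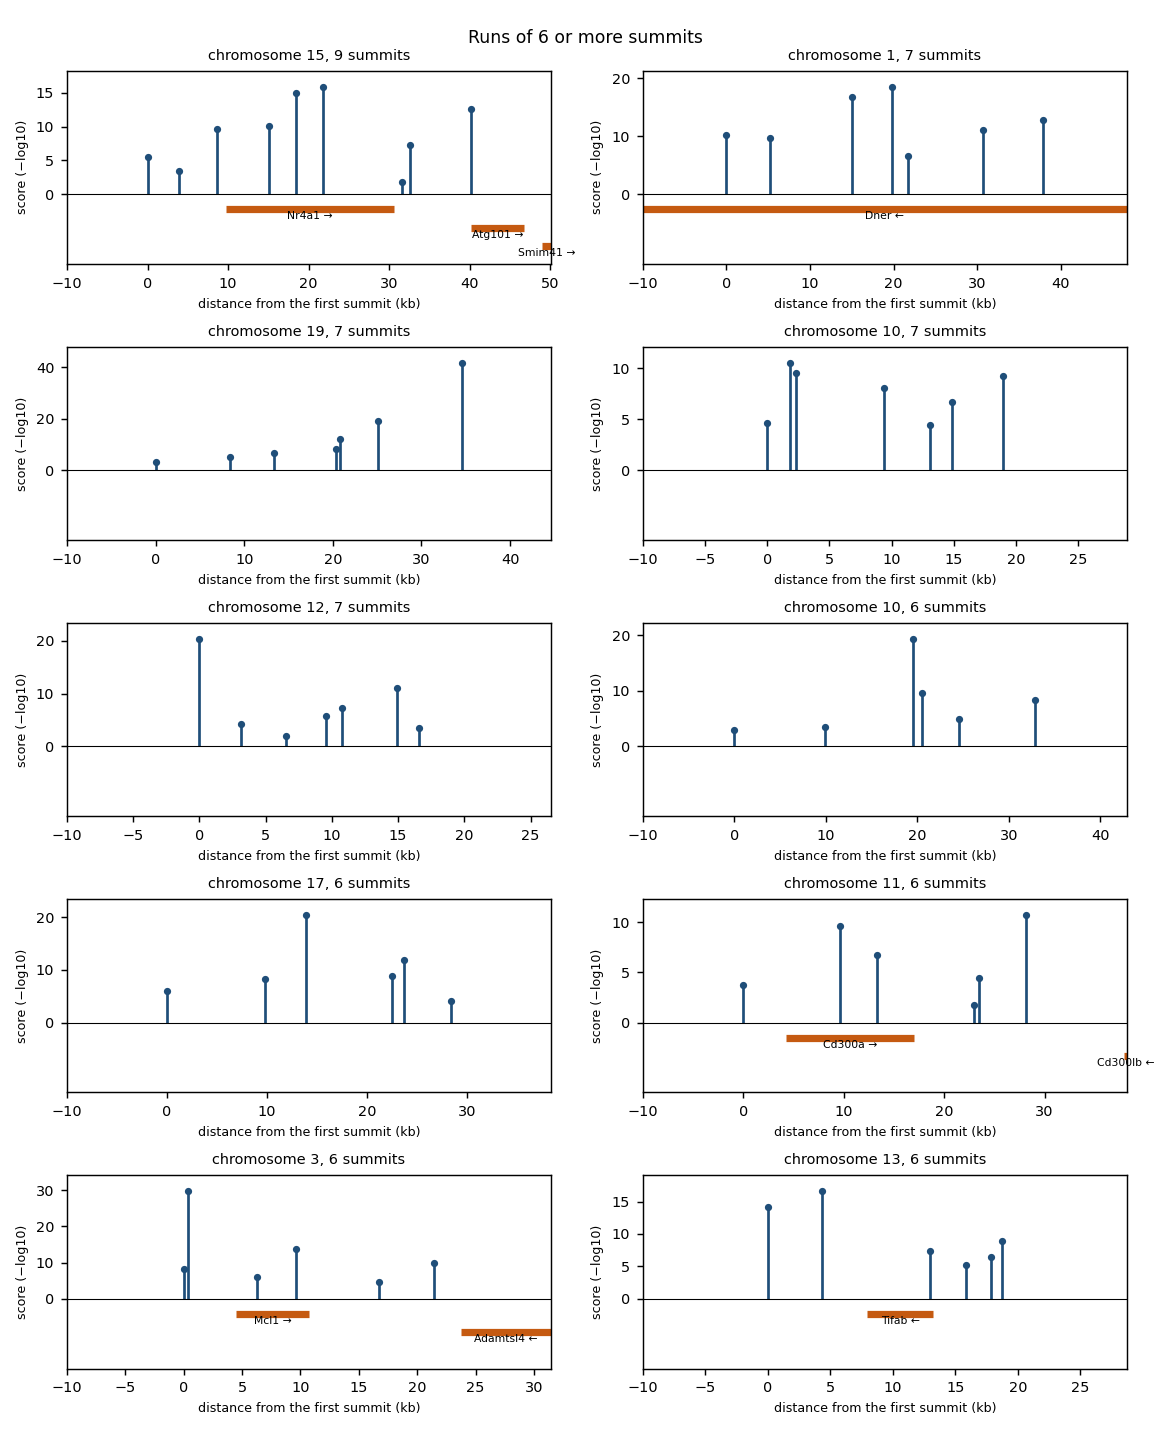
Summits of the 10 runs of 6 or more, drawn by distance in kb from the first summit of the run (horizontal) and score in −log10 (vertical), with bars below for protein-coding genes in the window. Scores in the run near Fth1 increase from 3.24 to 41.7, those near Mdm1 stay between 4.41 and 10.5, and 1 summit of 29.7 stands above the other 5 in the Mcl1 run.

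Among the 10 runs with the highest single summits, 9 are described, beginning with those near Fth1 (41.7), Mcl1 (29.7) and Dleu2 (29.0). Next was a run inside Itpkb, an inositol trisphosphate kinase that limits signalling in blood cells. It packed 4 summits into 3.16 kb at chr1:180401304-180404466, 70.8 to 74.0 kb after the gene's start, with scores of 9.57 at 180401304, 12.3 at 180402015, 2.82 at 180403962 and 26.9 at 180404466. All 4 also lay in the long non-coding gene Gm39712, and Stum was 27.9 kb from the run. The highest summit was only 0.504 kb from the lowest.

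The Gimap cluster of immune GTPase genes held a run of 5 at chr6:48684535-48708251. The scores were 9.77 at 48684535, the Gimap4 start shown above, 25.7 at 48693217, 3.55 at 48699160, 6.59 at 48700375 and 6.03 at 48708251, just before the Gimap6 start. The highest summit stood between the genes, 8.64 kb after the Gimap4 start. Gimap9, Gimap7, Gimap8, Gimap1 and Gimap5 were 5.42, 10.4, 23.7, 30.8 and 37.9 kb from the run.

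A run at chr2:45230991-45246890 had no protein-coding gene within 50 kb. Its nearest was Zeb2, at 113.5 kb, a repressor that guides monocyte and dendritic cell development. It scored 17.4 at 45230991, 25.2 at 45236370, 7.999 at 45238873 and 9.59 at 45246890. The run before Tmem131, at chr1:36962271-36976039, scored 9.77 at 36962271, 6.33 at 36962564, 24.8 at 36970061 and 12.5 at 36976039. Tmem131, a membrane protein gene of collagen secretion, was 22.7 kb away and the only gene within 50 kb.

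Cd180 encodes a relative of the Toll-like receptors that tempers responses to lipopolysaccharide. Its run at chr13:102684874-102695319 scored 4.23 at 102684874, 23.1 at 102689697, 12.4 at 102690197 and 9.57 at 102695319. The highest summit was 3.85 kb before the start, the last was 1.76 kb after it, and Mast4 lay 37.2 kb away. The last was a run inside Map4k4, a kinase upstream of JNK signalling, at chr1:39916323-39925004, with scores of 11.2 at 39916323, 22.6 at 39918961, 1.85 at 39920783 and 10.8 at 39925004. In these 9 runs, chosen by their highest summit, no other summit passed 20. This was not particular to them, since the 19 summits of at least 20 lay in 19 different runs.

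**Figure D5:**
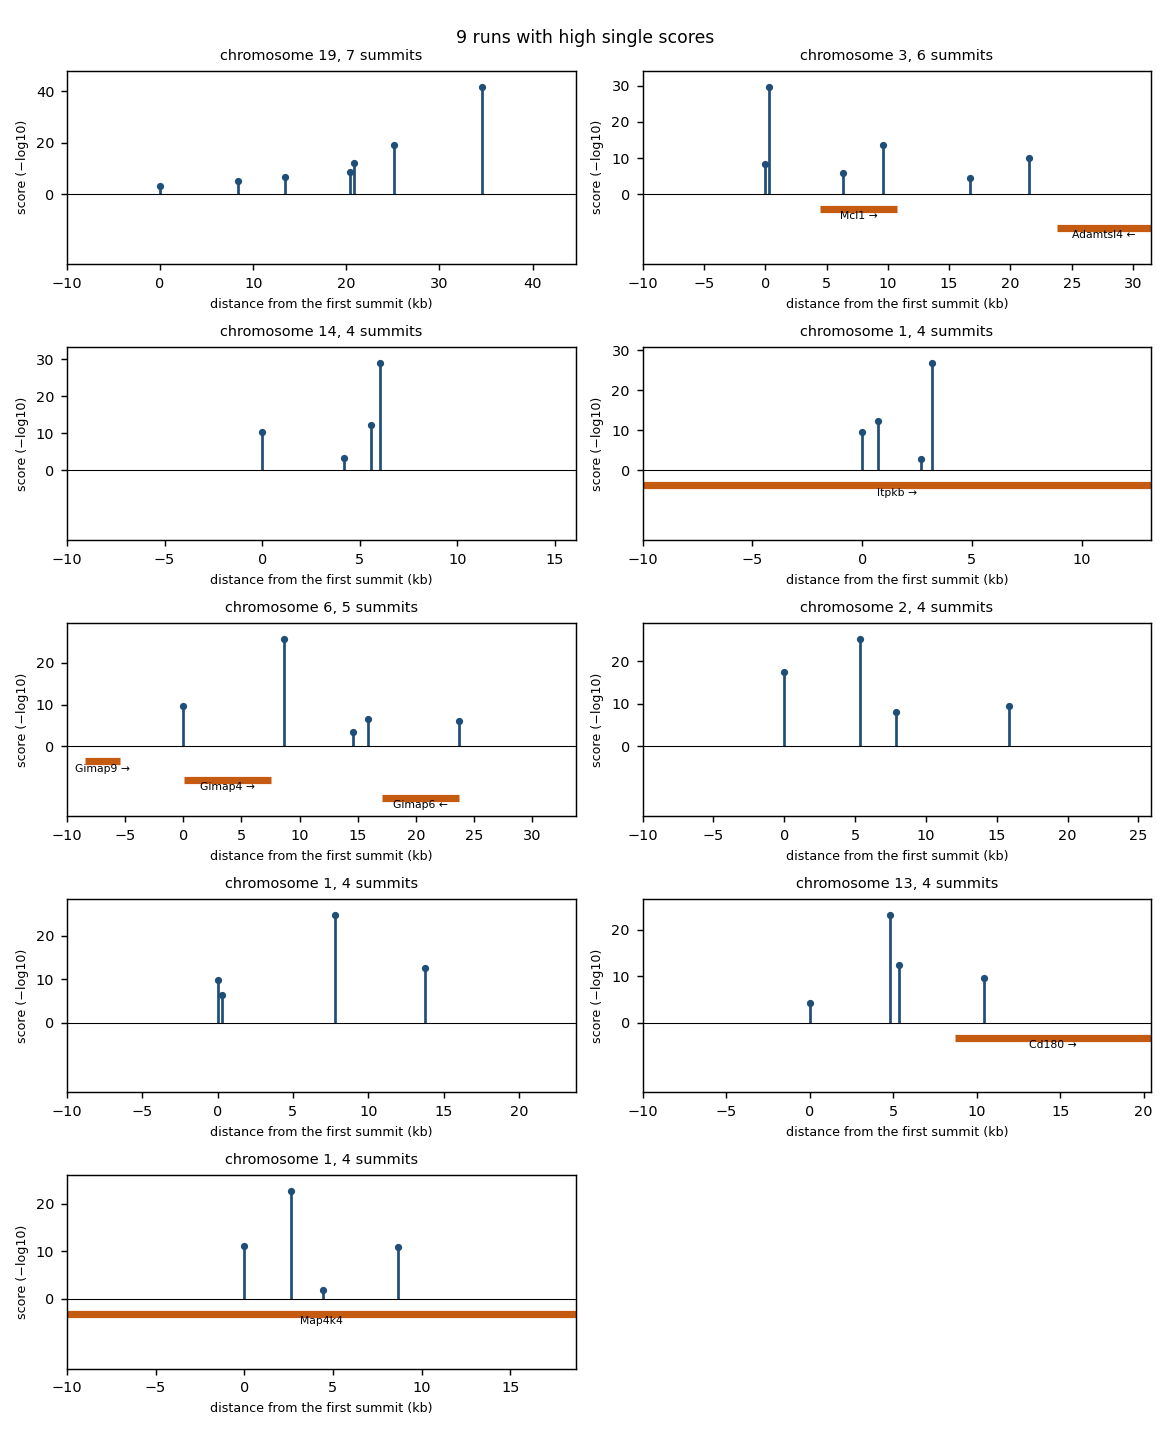
Summits of 9 of the 10 runs with the highest single scores, drawn by distance in kb from the first summit (horizontal) and score in −log10 (vertical), with bars below for protein-coding genes. Each run has 1 summit between 22.6 and 41.7, and all others in these runs lie below 20.

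Among runs with a gene of the lists nearby, those of the inflammatory genes come first. The run by Il1a, which encodes interleukin-1 alpha, lay at chr2:129310244-129320014 and scored 8.35 at 129310244, 2.41 at 129310945, 6.61 at 129316010 and 15.5 at 129320014. The first summit was 0.272 kb before the Il1a start, and the highest was 10.04 kb before it. Ckap2l lay 13.0 kb away and Il1b, the gene of interleukin-1 beta, 44.6 kb. Inside Nfkb1, the gene of the NF-kB subunit p50 and its precursor, the run at chr3:135628171-135637789 scored 8.18 at 135628171, 13.2 at 135628999, 6.58 at 135630137 and 2.06 at 135637789. Tnip3 encodes a partner of A20. Its run of 5 at chr6:65585491-65614420 scored 13.2 at 65585491, 11.9 at 65589049, 4.62 at 65596505, 5.73 at 65605550 and 8.64 at 65614420. The higher pair lay before the Tnip3 start, at 4.91 and 1.35 kb, and the 3 lower summits lay inside the gene.

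Receptor genes are next. The run at Pilra, an inhibitory receptor of myeloid cells, lay at chr5:137823348-137837360 and scored 7.48 at 137823348, 13.6 at 137825292, 8.81 at 137828820 and 19.1 at 137837360. The highest was 1.08 kb before the Pilra start and the other 3 were inside the gene. Its activating relatives Pilrb1 and Pilrb2 lay 14.8 and 28.5 kb away, and Zcwpw1, Mepce and Ppp1r35 lay 0.727, 36.6 and 43.2 kb away. Cd14, the lipopolysaccharide co-receptor of monocytes, had a run at chr18:36716002-36727833 that scored 11.9 at 36716002, 10.8 at 36720100, 4.99 at 36726692 and 13.2 at 36727833. With 12 protein-coding genes within 50 kb, it had the most crowded surroundings of any run. The other 11 were Tmco6, Ndufa2, Ik, E230025N22Rik, Slc35a4, Wdr55, Dnd1, Apbb3, Hars, Sra1 and Eif4ebp3, 7.19 to 49.7 kb away, so a link from the run to Cd14 rests on distance alone.

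Ncf4 encodes p40phox, a cytosolic subunit of the phagocyte NADPH oxidase. All 4 summits of its run, at chr15:78247800-78258388, were inside the gene, and they scored 19.99 at 78247800, 15.9 at 78248594, 9.48 at 78257390 and 2.32 at 78258388. The scores fell from left to right, and Csf2rb2, a cytokine receptor beta chain, and Pvalb lay 24.1 and 41.4 kb away. Grn encodes progranulin, a lysosomal growth factor of macrophages. The run there, at chr11:102425842-102440501, scored 6.59 at 102425842, 14.3 at 102432200, 9.68 at 102432454 and 7.59 at 102440501. The 2 summits inside Grn, 1.69 and 1.95 kb after its start, were the highest. A further summit lay in Fam171a2, and Itga2b, Slc25a39, Rundc3a and Gpatch8 were 12.8, 17.2, 23.3 and 35.4 kb away.

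Cass4 encodes an adhesion docking protein of the Cas family. Its run at chr2:172393637-172406315 scored 12.1 at 172393637, 12.01 at 172398249, 13.98 at 172399432 and 16.7 at 172406315, so it was 1 of the 4 in which every summit passed 10. The first lay 0.007 kb before the Cass4 start and the other 3 were inside the gene, though no GAGGAA stood in that promoter. The mitotic kinase gene Aurka, which put the run among those near list genes, was 22.8 kb away, and Cstf1, Rtf2, Fam210b and Gcnt7 were 11.2, 34.3, 37.9 and 43.9 kb away.

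The shortest run lay inside Rin3, which encodes a Rab5 exchange factor of endosome traffic. It held 4 summits in 2.81 kb at chr12:102337811-102340617, 54.2 to 57.0 kb after the Rin3 start, with scores of 7.48 at 102337811, 6.98 at 102339406, 6.59 at 102340405 and 15.7 at 102340617. The last 2 were 0.212 kb apart, the closest in any run. A second run of 4, at chr12:102282340-102297257, spanned the start of the same gene, with 1 summit 0.734 kb before it and a top score of 15.04. Slc24a4 lay 15.2 kb from that one. Rin3 thus held 7 summits of runs.

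The remaining runs are ordered by the known role of the nearest gene, or of a better-known gene close by where the nearest is little studied, with the number of summits and the top score of each. This order and the choice of what to say of each gene were made after the positions were known, and it carries no count or comparison of roles. Receptor and surface genes, and regulators of receptors, are given first. At Il1rl1, the interleukin-33 receptor, 4 summits (chr1:40404815-40415727) reached 9.71, with Il1rl2 and Il18r1 37.3 and 49.8 kb away. The highest lay 13.8 kb before the start in the promoter table, and it was 1 of 3 inside the gene's annotated span. Beside Il10ra, the interleukin-10 receptor gene, 5 summits (chr9:45238233-45252596) reached 11.96, of which 4 were inside BC049352 and Il10ra itself was 1.24 kb away. Sirpb1a, a signal-regulatory receptor, was 25.9 kb from 4 summits (chr3:15331667-15345804, top 11.9), 1 of them in its relative Gm9733. H60b, a ligand of NKG2D, was 12.9 kb from 4 summits (chr10:22301763-22310384, top 19.3).

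Entpd1 encodes CD39, which breaks down extracellular ATP, and held 4 summits (chr19:40679120-40693499) with a top of 15.5. The run beside Coro1c (chr5:113835234-113842015, 4 summits, top 10.1) was 0.424 kb from that coronin gene and 2.71 kb from Selplg, the P-selectin ligand. Ptger3, a prostaglandin E2 receptor, held 4 summits (chr3:157627565-157635881, top 16.6), 60.7 to 69.0 kb after its start. Chrm3, a muscarinic receptor, held 2 of 4 (chr13:9873572-9884275, top 14.7). The run at Arrb2, the arrestin that stops receptor signalling (chr11:70437651-70459955, 4 summits, top 11.1), placed 1 summit in Arrb2, 1 in Med11, 1 in both Zmynd15 and the chemokine gene Cxcl16, and 1 in no gene. Grk2, the kinase that primes receptors for arrestin, held 4 (chr19:4294609-4302372, top 14.2).

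Genes of signalling inside the cell follow. In Aim2 the 4 summits (chr1:173409281-173420507) reached 9.48 at 8.39 kb before the start, and the promoter summit shown above scored 7.20. The run at Tank, an adaptor of the TBK1 pathway (chr2:61578517-61593721, 4 summits, top 13.9), had 1 summit at each of 2 separate Tank starts, scored 10.999 and 4.62. In Gna15 (chr10:81517431-81524430) all 4 summits were inside the gene, the top was 8.68, and its neighbours were Gna11 at 4.29 kb and the lysophospholipid receptor gene S1pr4 at 17.3 kb. Pik3r5, a regulatory subunit of PI3-kinase gamma, held 2 of 4 (chr11:68430638-68441189, top 13.3). Dapp1, a phosphoinositide-binding adaptor, held 4 (chr3:137947776-137963739, top 14.8).

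Rgs2, an inhibitor of G protein signalling, held 2 of 4 (chr1:143992751-144006611), with the top of 18.0 lying 11.4 kb after its start. Prkch, a protein kinase C, held all 5 of its run (chr12:73603569-73611037, top 9.75). Ubash3b, a phosphatase of the Sts family, held 2 of 4 (chr9:41153087-41162679, top 11.2). Sla, a Src-like adaptor gene lying within the thyroglobulin gene Tg, held 5 (chr15:66810287-66823121, top 19.1). Cmip, which encodes an adaptor protein, held all 5 of its run (chr8:117280596-117303770, top 11.8). Hpcal1, a calcium sensor, held 4 (chr12:17712138-17724837, top 11.002). Lrrk2, a kinase gene of phagocytes linked to Parkinson's disease, was 23.8 kb from 4 summits (chr15:91641849-91648968, top 9.59).

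Genes of transcription, chromatin and the nucleus are given next. Fli1, an ETS factor like PU.1, held 4 summits (chr9:32499676-32521644) with a top of 11.96. Nrip1, a nuclear receptor corepressor, held 4 (chr16:76356131-76366080), the highest of which was 22.4 at 9.88 kb after the start. Trerf1 held 4 (chr17:47216030-47225522, top 11.7). Batf3, an AP-1 factor of cross-presenting dendritic cells, lay 1.12 kb from 4 summits (chr1:191110065-191116063, top 15.6), and Irf2 was 38.9 kb from 4 (chr8:46886403-46896833, top 10.4). Tet2, the DNA demethylase gene often mutated in myeloid disease, was 38.1 kb from 4 (chr3:133583215-133591545), of which 1 scored 14.6 and the rest at most 5.64.

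Chd7, a chromatin remodeller, was 44.9 kb from 4 summits (chr4:8913306-8918556, top 19.1), a run in which every score passed 10. H3f3a, a histone H3.3 gene, was 8.88 kb from 5 (chr1:180822483-180835863, top 19.3). The DNA repair gene Rad51b held all 5 of its run (chr12:79625887-79642924, top 12.99). In addition, 5 summits (chr10:80148908-80173212, top 11.96) lay among Midn, Cirbp and Fam174c, a gene-rich stretch with 8 protein-coding genes within 50 kb, one of which is the kinase gene Stk11.

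Genes of the cytoskeleton, membrane traffic and phagocytosis follow. Elmo2, which activates Rac for engulfment, held 2 of 4 summits (chr2:165319662-165332778), and the highest, 21.5, was 6.30 kb before the start. Coro2a held 4 (chr4:46555910-46564061, top 14.2), with every score above 10. Capzb, an actin capping subunit, held 3 of 4 (chr4:139192487-139199869, top 11.9). Iqgap1, a scaffold of the actin cytoskeleton, held 5 (chr7:80766191-80788523, top 8.57), and 1 of these, scored 1.44, shared the lowest score of any run with a summit in the run towards Tab2. Myo1f, a myosin of neutrophils, held 3 of 4 (chr17:33555428-33566414, top 7.9997).

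Arhgap26, a GTPase-activating protein, held 4 summits in 4.65 kb (chr18:38943480-38948133, top 15.002). Mtss1, a membrane-bending actin regulator, held 4 (chr15:59041196-59051195, top 13.1). Hip1, a clathrin adaptor, held 4 (chr5:135463555-135479449), of which 1 scored 21.8, 9.78 kb after the start, and the others at most 7.20. Myof, a membrane repair protein, held 4 (chr19:38011507-38027040, top 13.1). Itsn2, an endocytic scaffold, was 47.0 kb from the run with the lowest top score, whose 4 summits (chr12:4536707-4545684) reached 5.64.

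Lysosomal, lipid and metabolic genes came next. Ctsc encodes cathepsin C, which activates the serine proteases of neutrophil granules, and lay 23.0 kb from 4 summits before its start (chr7:88243305-88255054, top 11.2). Gm2a, a lysosomal lipid activator, held 1 of 5 (chr11:55106935-55131649, top 15.5), and another of them was in the amino acid transporter gene Slc36a3. Sorl1, a sorting receptor, held 4 (chr9:42086368-42098055), of which 3 scored between 15.98 and 17.7. Lpcat2, which makes platelet-activating factor, held 2 of 5 in only 3.52 kb (chr8:92853319-92856839), with a top of 16.4 and 1 further summit in the gelatinase gene Mmp2. Their median of 15.5 made this the run of 5 with the highest middle score.

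Aqp9, a glycerol channel, held 3 of 5 (chr9:71155559-71179453), of which the promoter summit was the highest with 15.9, 0.100 kb before the start. Pfkp, a phosphofructokinase, held 2 of 4 (chr13:6644823-6660911), with 20.2 at 0.965 kb after the start. In Cds2 (chr2:132274979-132289372, 4 summits, top 8.85) the promoter summit shown above was the lowest, and Pcna, the replication clamp, was 21.8 kb away. Lipc, hepatic lipase, held 4 alike in score, 8.24 to 10.04 (chr9:70830354-70841251). Asph, a hydroxylase of the endoplasmic reticulum, held 4 (chr4:9630509-9641127, top 10.4).

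In the Ugt1a cluster, whose genes share their last exons, 4 summits (chr1:88077364-88092481, top 10.4) lay within Ugt1a10 and Ugt1a9, and the count of genes here reflects overlapping models of 1 locus. Popdc2 and the phospholipase gene Pla1a held 1 summit each of a sparse run of 4 (chr16:38377034-38404366, top 11.8). Tbc1d8 was 14.5 kb from 4 (chr1:39493242-39503465, top 13.6). Coq2, an enzyme of coenzyme Q synthesis, was 10.3 kb from 5 (chr5:100624952-100644445, top 12.01), with the heparanase gene Hpse at 35.0 kb. The pyruvate dehydrogenase gene Pdhx was 44.6 kb from 5 (chr2:102967646-102976425, top 13.1). Retreg1, a receptor of reticulum autophagy, was 10.5 kb from 5 (chr15:25825898-25832785, top 20.5).

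The last runs with a gene within 50 kb had neighbours of other or less known roles. Kcnk13 held 2 of 4 (chr12:99956142-99965748), with a top of 7.05, and its promoter summit was second with 6.00. Kcnk10 was 46.05 kb from 4 (chr12:98369040-98383382, top 15.2). Eif2a, at whose start the promoter summit scored 11.7, closed a run of 5 that reached 14.5 (chr3:58502108-58525815) and placed 1 summit in Serp1. The gene 5031439G07Rik held 1 of 4 (chr15:84982085-84995331, top 11.7). D630003M21Rik was 7.92 kb from 4 (chr2:158155778-158174615, top 14.9), which all passed 10, and the transglutaminase gene Tgm2 was 9.39 kb away on the other side. Mnd1 was 11.2 kb from 4 (chr3:84063537-84076737, top 14.2), Nid1 8.58 kb from 4 (chr13:13520859-13529226, top 14.2), Cdkn2aipnl 28.7 kb from 4 (chr11:51927342-51938950, top 8.24) and Tent2 38.8 kb from 5 (chr13:93231225-93260800, top 15.7).

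The 7 runs without a protein-coding gene within 50 kb included those at Dleu2 and towards Zeb2. Of the other 5, the run at chr4:55798183-55816044 held 5 summits with a top of 14.8, and its nearest gene, at 265.7 kb, was Klf4, a zinc-finger factor of monocytes. At chr10:8065895-8073670, 109.6 kb from Tab2, an adaptor of TAK1, 5 summits spanned scores from 1.44 to 20.4. At chr10:96328680-96338036, 5 summits with a top of 12.7 lay inside the long non-coding gene Gm33782, 279.0 kb from Btg1, an antiproliferative gene. At chr14:14594914-14606140, 96.9 kb from Slc4a7, 1 of 4 summits scored 20.8 and the others at most 9.71. At chr7:67440873-67451626, 4 summits reached 13.98, with Lrrc28 61.8 kb away and the start of Mef2a, a MADS-box factor, 68.0 kb away. Distance to the nearest gene does not say which gene a distant summit acts on, and that was not tested in this series.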

How the data were processed

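PU.1 ChIP-seq was made from 3 PU.1 high and 2 PU.1 low libraries of AML-246 leukaemia cells. The submitters' processing notes name CASAVA 1.8.2, MACS2 and the build mm10. The aligner, MACS2's version and settings, and the depth were not given in the sources used here. For each summit, the deposited list gives 1 position (taken as 1-based, the file's start plus 1) and a −log10 score, which the authors' peak caller made for a comparison named high versus low, with no record of the libraries used, so weak summits depend on the caller's threshold and no replicate can be compared. No 2 summits share a peak name, but this does not show that close summits come from separate peaks. Closeness was judged by distance alone.

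Runs were found on chromosomes 1 to 19 with Python 3.11.15, pandas 2.3.3, numpy 2.4.6 and scipy 1.17.1, and the search was tested on simulated data. Figures were drawn with matplotlib 3.10.9. The runs, the rule and the 12 gene lists were chosen with earlier results of these data known, and no test was made. Gene spans came from the RefSeq table of GRCm38.p6; promoter and microRNA sequences came from RefSeq. Since promoters were listed for 16456 of 20661 protein-coding genes (79.6%), the distance shares and medians used gene ends, not start sites as first planned. Distances from a summit to a start use the starts in the promoter table. No genome was used, so motifs were searched in promoters. Described summit by summit were runs of 6 or more summits, the 10 with the highest summit, the shortest and longest, and the 10 with the highest summit among those within 50 kb of a list gene, 27 runs in all, of which 1 is not reported here; the others are given by location, size, top score and nearest gene. Alternatives were other gaps, run sizes, score minimums, gene windows, merging of close summits and adding chromosome X.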

Additional observations from a re-analysis of the deposited data

How the results depend on the processing

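The runs follow from the limits that define them. Of 80 comparisons with an alternative, 41 stayed within the range set for the value and 39 did not. For counts this range was a fixed fold to either side, such as 66.7 to 150 for the 100 runs. For shares and the median score it was a 95% interval. The split of 41 and 39 depends on these ranges and is no measure of how firm the results are. With gaps of at most 5 kb there were 23 runs of 103 summits with a median score of 8.18, 40.8% of summits inside protein-coding genes, 42 genes within 50 kb and 0 list genes. Gaps of up to 20 kb gave 272 runs, 1276 summits, 696 genes and 34 list genes. At least 3 summits gave 376 runs, 1276 summits, 832 genes and 35 list genes. At least 5 summits gave 31 runs, 172 summits, a median score of 8.31, 34.9% inside genes, 72 genes, 3 list genes and GAGGAA in 19.5% of promoters near runs. When only summits scored at least 5 were used, there were 60 runs, 254 summits, a median of 9.77, 135 genes and 8 list genes. With a minimum score of 10 there were 4 runs, 16 summits, a median of 12.9, 12 genes, a gene near 100% of runs, 1 list gene and GAGGAA in 20% of promoters. Genes within 10 kb numbered 103, at 72% of runs and with 9 list genes, and genes within 100 kb numbered 365. The share of summits near a gene end was 2.68% within 100 bases and 24.1% within 5 kb. Merging summits within 500 bases left 84 runs and 374 summits. Adding chromosome X could change no value, since it held no run, and its comparisons are among the 41. No paired analysis was possible because the list gives a single value per summit and none per library, which also kept any 1 replicate from being left out. Motif windows of 50 and 150 bases around summits were not run because no genome was used. The depth is unknown, so it cannot be said which weak summits a deeper library would add.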

Other observations

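Chromosome X held 186 summits and none of them stood in a run of 4 or more. With the limit set at 3 counts, 0 of 186 allows a share of up to 1.61%, for counting error only. This limit treats each summit as independent, whereas summits enter a run at least 4 at a time. It therefore does not set chromosome X below the 4.1% of chromosomes 1 to 19.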
